A study of Mus musculus with 12 samples.

Results

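Antiviral restriction effectors are proteins that act inside or on the surface of a cell to block a step of viral entry, genome copying, translation or release. The 10 genes described here were taken by symbol from the count table after its gene identifiers had been matched to mouse symbols, and all 10 of 10 were found among the 32285 genes of the table. They are Rsad2, Cmpk2 and Samhd1 (nucleotide metabolism), Ifitm2, Ifitm3 and Bst2 (membranes, at entry and release), Eif2ak2 and Adar (double-stranded RNA), and Trim25 and Trim30a (tripartite motif proteins). The cells were bone marrow-derived macrophages of wild-type (WT) mice, grown in culture and plated before treatment. Medium alone is called M. The other groups were kept in medium with itaconic acid (IA), methylsuccinic acid (MetSA) or malonic acid (MA), each at 5 mM for 16 h. IA carries a methylene double bond that MetSA, with the same carbon skeleton, lacks, and MA is a shorter dicarboxylic acid. There were 3 biological replicates in each of the 4 groups, and neither the strain, sex and age of the mice nor whether replicates came from separate animals is given in the sources used here. No virus or interferon is named in the labels, and the cells were a culture with no knockout or transgene.

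Most of these genes are known to be induced by type I interferon, which binds its receptor and activates the kinases Jak1 and Tyk2. These kinases activate a transcription factor complex that includes Irf9 and binds a DNA element called the interferon-stimulated response element (ISRE). Macrophages keep a low tonic level of this pathway without infection, so the transcripts of many effectors are present in resting cells.

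The libraries held 46892488 to 54252486 counts, and every member had at least 1227 counts in every library. Macrophage markers were abundant (8 of 8 tested, summed level 24578 to 33230 CPM, the count scaled to library size with TMM factors). MetSA replicate 3 stood apart from the other MetSA libraries, with 1.28% of counts on mitochondrially encoded genes against 0.759% and 0.833%. Its share lay within the range of the M libraries (1.146% to 1.356%). IA libraries held 0.673% to 0.811% and MA libraries 1.054% to 1.125%. The reason for this difference was not tested. Bst2 is also a marker of plasmacytoid dendritic cells. The summed level of 8 other markers of those cells was 185 to 212 CPM in M, 252 to 273 in IA, 256 to 277 in MetSA and 232 to 248 in MA, nearly all of it from Tcf4, and of the rest Siglech stayed at or under 1.49 CPM and Klk1 was at 0. For conventional dendritic cells (6 of 6 markers tested) the sums were 2.01 to 3.74 CPM in M, 8.33 to 13.2 in IA, 6.28 to 6.77 in MetSA and 1.73 to 2.60 in MA. In their highest libraries Xcr1 reached 5.08 CPM and Dpp4 4.85, while Clec9a, the next highest of these markers, reached 1.24. The part of these shifts in the marker sums in the results was not tested. Sums over all libraries were 17.9 to 37.6 CPM for neutrophil markers, 3.36 to 6.34 for B cell markers, 0 to 0.407 for T and NK cell markers (Cd3g at 0) and 7.27 to 37.6 for stromal markers.

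Promoter windows of 300 bases, from 250 before to 50 after the start site, were matched for 10 of 10 members in RefSeq on GRCm38.p6. Both strands were searched for the ISRE core, which is GAAA, any 2 bases and GAAA again. It was present in a window of 6 of the 10 members, against 3.44% of all 32851 windows of this length and 3.98% of the tested genes that had a window. The core of the gamma-activated site (GAS), TTCNNNGAA, was present in 5 members, against 8.30% of all windows. Bst2 and Ifitm3 each held 2 ISRE cores and 1 GAS core. In both genes the GAS match overlapped an ISRE match, and the 2 ISRE matches of Bst2 overlapped each other. A match is a description of the letters, and no match says only that they are absent from that window.

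The 5 windows below are printed because they belong to the neighbours Rsad2 and Cmpk2, the paralogs Ifitm2 and Ifitm3, and Bst2, which held a pair of overlapping cores. They read 5′ to 3′ on the gene's own strand, and capitals mark ISRE core matches on either strand. Their positions are chr12:26456403-26456702, minus strand for Rsad2, chr12:26468965-26469264, plus strand for Cmpk2, chr7:140955912-140956211, minus strand for Ifitm2, chr7:141010695-141010994, minus strand for Ifitm3 and chr8:71537423-71537722, minus strand for Bst2.
Rsad2: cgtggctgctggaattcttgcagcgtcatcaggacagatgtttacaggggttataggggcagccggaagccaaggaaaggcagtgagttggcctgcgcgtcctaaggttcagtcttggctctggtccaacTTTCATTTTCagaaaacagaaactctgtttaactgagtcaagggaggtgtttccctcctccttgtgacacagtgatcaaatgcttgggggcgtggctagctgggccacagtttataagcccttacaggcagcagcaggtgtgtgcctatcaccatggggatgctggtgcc
Cmpk2: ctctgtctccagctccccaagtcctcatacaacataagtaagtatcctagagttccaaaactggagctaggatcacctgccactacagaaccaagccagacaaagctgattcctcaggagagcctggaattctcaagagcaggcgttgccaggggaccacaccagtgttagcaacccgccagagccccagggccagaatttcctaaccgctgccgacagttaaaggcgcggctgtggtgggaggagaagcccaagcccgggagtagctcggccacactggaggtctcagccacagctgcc
Ifitm2: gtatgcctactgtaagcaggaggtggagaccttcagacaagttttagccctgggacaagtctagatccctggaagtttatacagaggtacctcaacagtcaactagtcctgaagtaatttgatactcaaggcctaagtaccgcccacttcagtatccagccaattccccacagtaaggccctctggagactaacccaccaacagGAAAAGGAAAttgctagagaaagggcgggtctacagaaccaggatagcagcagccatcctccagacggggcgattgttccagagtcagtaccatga
Ifitm3: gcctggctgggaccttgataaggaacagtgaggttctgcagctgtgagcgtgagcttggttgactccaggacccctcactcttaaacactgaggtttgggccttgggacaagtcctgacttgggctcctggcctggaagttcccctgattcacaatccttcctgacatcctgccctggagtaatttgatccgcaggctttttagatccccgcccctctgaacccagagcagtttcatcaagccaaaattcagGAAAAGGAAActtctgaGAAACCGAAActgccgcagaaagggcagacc
Bst2: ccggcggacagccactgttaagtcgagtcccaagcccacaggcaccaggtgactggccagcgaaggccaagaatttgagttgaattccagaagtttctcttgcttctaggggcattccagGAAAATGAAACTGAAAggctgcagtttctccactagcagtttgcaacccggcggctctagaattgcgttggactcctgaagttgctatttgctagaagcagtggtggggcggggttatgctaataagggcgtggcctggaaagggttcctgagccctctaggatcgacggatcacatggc
The Rsad2 core lay on the opposite strand, from 120 to 111 bases upstream of the start site, while the Cmpk2 window held neither motif. The Ifitm2 core lay from 46 to 37 bases upstream. The Ifitm3 cores lay downstream, at bases 3 to 12 and 20 to 29, and its first match has the same 10 letters as the one in Ifitm2. Eif2ak2 had an ISRE core at bases 19 to 28 after the start, and both annotated starts of Trim30a had one. Samhd1, Adar (3 annotated starts) and Trim25 had no ISRE core in their windows.

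**Figure D1:**
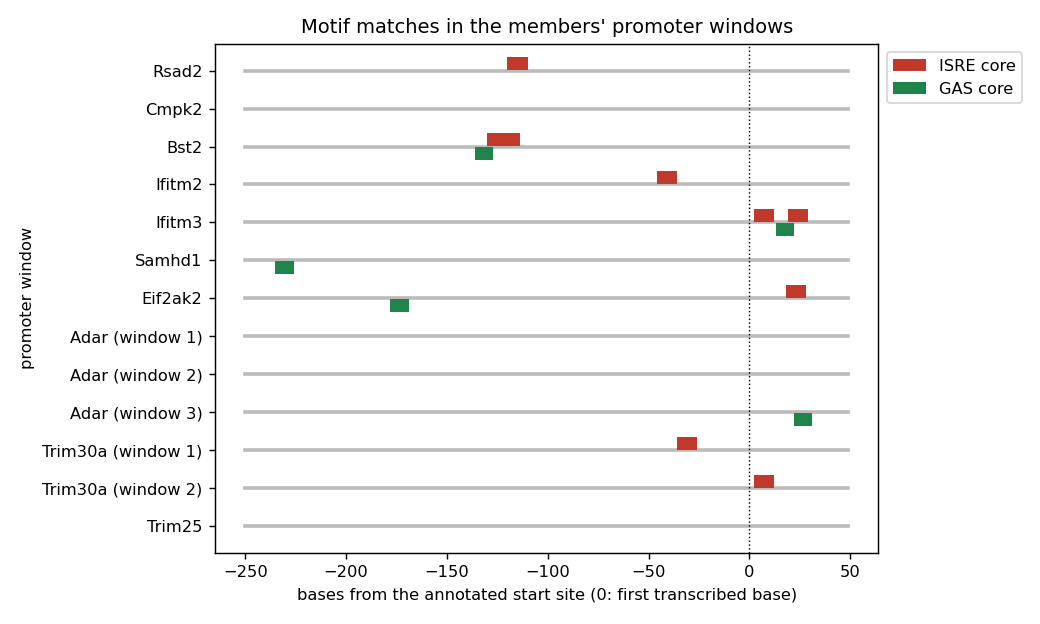
Positions of ISRE cores (red, above the line) and GAS cores (green, below) in the promoter window of each annotated start, in bases from the start site, where 0 is the first transcribed base. ISRE cores lie in windows of 6 of the 10 genes and GAS cores in windows of 5.

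Against M, the members rose after IA and MetSA and were lower or not called after MA. After IA 9 of 10 were higher at an adjusted p under 0.05 (edgeR quasi-likelihood test, Benjamini-Hochberg over the 14113 genes tested), where 17.9% of all tested genes were called higher and 17.3% lower. After MetSA 10 of 10 were higher, against 12.6% of all genes higher and 8.53% lower. After MA 6 of 10 were lower, against 10.1% of all genes lower and 10.1% higher, and 0 members were higher by edgeR, 0 by DESeq2 and 0 at an unadjusted p under 0.05. The members' median log2 fold change was 1.56 after IA, 1.28 after MetSA and -0.32 after MA, beside medians over all tested genes of -0.03, -0.01 and -0.02. The libraries of the groups did not overlap for 9 members after IA and for 10 after MetSA, where 23.5% and 18.1% of all genes were higher without overlap. These comparisons share the M libraries. In bulk RNA, a change in the number of cells of a type and a change in RNA per cell cannot be told apart.

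**Figure D2:**
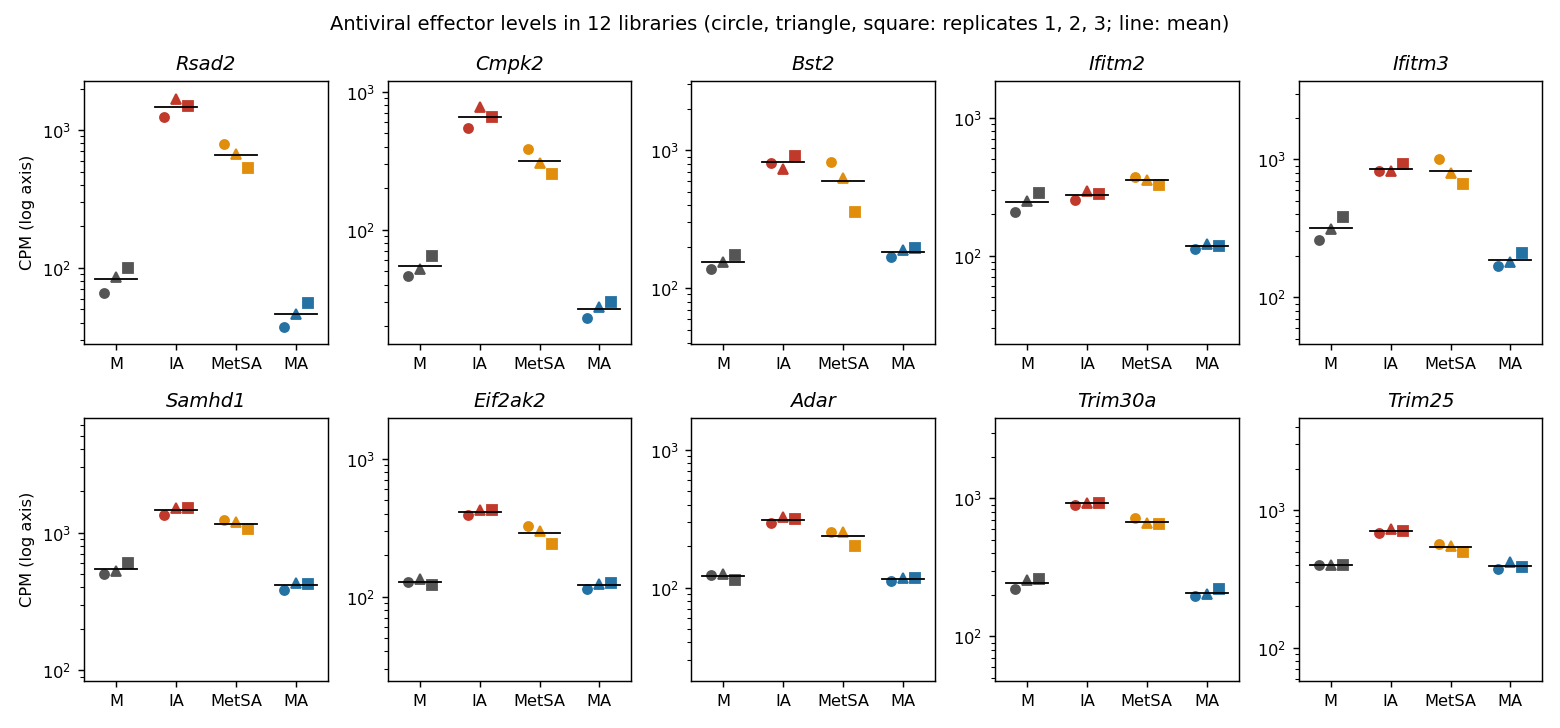
CPM on a log axis for each gene in the 12 libraries, with M in grey, IA in red, MetSA in orange and MA in blue. Symbols mark the replicate number and lines the group means. In 10 of 10 genes MetSA replicate 3 (square) is the lowest of its group and MetSA replicate 1 (circle) the highest.

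Rsad2 and Cmpk2 are neighbouring genes with a shared theme in nucleotide chemistry. Rsad2 encodes viperin, a radical SAM enzyme that turns CTP into a chain terminator of viral RNA polymerases. Cmpk2 encodes a mitochondrial nucleotide kinase that has been proposed to supply viperin, a link not tested here. Rsad2 (ENSMUSG00000020641, chr12:26442746-26456452, minus strand, 8 exon blocks) had the largest rise of the members. Its level was 65.8, 85.5 and 100.02 CPM in M replicates 1 to 3, 1249.8, 1692 and 1497 in IA, 792, 668 and 529 in MetSA, and 37.5, 46.0 and 55.5 in MA. The 4 groups did not overlap, in the order IA, MetSA, M, MA. The log2 fold change against M was 4.14 (SE 0.24, adjusted p = 1.22e-06) after IA, a 17.7-fold rise with a 95% interval of 12.0 to 25.9. It was 2.98 (SE 0.23, adjusted p = 1.73e-05) after MetSA. After MA Rsad2 fell by 0.85 (SE 0.22, adjusted p = 0.0243) on the log2 scale, and this call was lost without M replicate 2 or 3 or MA replicate 1 or 2 (adjusted p from 0.0618 to 0.0861).

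Cmpk2 (ENSMUSG00000020638, chr12:26469204-26479837, plus strand, 5 exon blocks) lies head to head with Rsad2, with 12751 bases between their starts, and followed it closely. It stood at 46.2, 51.8 and 64.8 CPM in M, 547, 772 and 651 in IA, 385, 305 and 255 in MetSA and 22.9, 27.5 and 29.9 in MA. Again no 2 groups overlapped. The change was 3.60 (SE 0.21, adjusted p = 9.69e-07) after IA, 2.54 (SE 0.20, adjusted p = 1.82e-05) after MetSA and -1.02 (SE 0.20, adjusted p = 0.00624) after MA.

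Samhd1 (ENSMUSG00000027639, chr2:157097533-157135265, minus strand, 17 exon blocks) encodes a triphosphohydrolase that breaks down deoxynucleotides and so starves reverse transcription. It was already high in M, at 504, 529.7 and 604 CPM. IA libraries held 1335, 1497 and 1501 CPM, MetSA libraries 1228, 1191 and 1068, and MA libraries 380.0, 432 and 427. The groups did not overlap. Samhd1 rose by 1.40 (SE 0.08, adjusted p = 5.69e-11) on the log2 scale after IA and by 1.09 (SE 0.08, adjusted p = 5.73e-09) after MetSA, and fell by 0.40 (SE 0.08, adjusted p = 0.000733) after MA.

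Ifitm2 and Ifitm3 encode short transmembrane proteins of endosomes and the cell surface that hinder fusion of enveloped viruses, and they lie 53598 bases apart in a cluster on chromosome 7. Ifitm3 (ENSMUSG00000025492, chr7:141009586-141010770, minus strand, 2 exon blocks) was at 258, 313 and 381 CPM in M. It reached 829, 824 and 920.3 CPM in IA and 1010.0, 801 and 667 in MetSA, which overlapped each other, and stood at 167, 179 and 209.8 in MA. The log2 fold change was 1.43 (SE 0.18, adjusted p = 0.000157) after IA, 1.38 (SE 0.18, adjusted p = 0.000364) after MetSA and -0.78 (SE 0.18, adjusted p = 0.0118) after MA. Without MA replicate 1 the fall after MA was not called (adjusted p = 0.0540).

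Ifitm2 (ENSMUSG00000060591, chr7:140954837-140955987, minus strand, 2 exon blocks) was the 1 member not called after IA. Its levels were 206, 249 and 282 CPM in M and 254, 292 and 277 in IA, which overlapped, with a log2 fold change of 0.16 (SE 0.09, 95% interval -0.03 to 0.35, adjusted p = 0.196). Without M replicate 3 the change was 0.27 and was called (adjusted p = 0.0193). MetSA libraries held 373, 353 and 324 CPM, above all M and IA libraries, and the rise against M was 0.51 (SE 0.09, adjusted p = 0.000626). In MA Ifitm2 stood at 112, 122 and 117 CPM, a fall of 1.07 (SE 0.09, adjusted p = 2.46e-07) and the lowest adjusted p among the members in that comparison. The value is uncertain, since 34.9% of its 100-base stretches also occur in other annotated genes (Gm11951, Gm8865 and Gm45717).

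Other genes of the Ifitm family were measured at lower levels. Ifitm1 was at 4.67 ± 2.0 CPM in M, 4.68 ± 0.30 in IA, 7.64 ± 1.1 in MetSA and 1.11 ± 0.30 in MA (SD, n = 3), and only its fall after MA was called among the comparisons with M (-2.07, SE 0.28, adjusted p = 4.76e-05; 0.00, adjusted p = 0.992 after IA; 0.71, adjusted p = 0.0507 after MetSA). Ifitm6 rose by 2.00 (SE 0.16) after IA and 1.61 (SE 0.15) after MetSA and fell by 1.24 (SE 0.17) after MA, from 5.70 CPM in M.

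Bst2 (ENSMUSG00000046718, chr8:71534255-71537456, minus strand, 5 exon blocks) encodes tetherin, which holds budding virions on the cell surface. It was at 138, 154 and 175 CPM in M and at 808, 735 and 903 in IA. The MetSA libraries were the most scattered of any member in any group, at 818, 632 and 358 CPM, a coefficient of variation of 38.3%, though all 3 lay above M. MA libraries held 167, 188 and 196 CPM and overlapped M. Bst2 rose by 2.39 (SE 0.27, adjusted p = 0.00013) on the log2 scale after IA and by 1.95 (SE 0.26, adjusted p = 0.000788) after MetSA. After MA the change was 0.24 (SE 0.26, 95% interval -0.34 to 0.83, adjusted p = 0.600), the 1 positive value among the members in that comparison. It was called with no filter on low counts (0.24, SE 0.07, adjusted p = 0.00549) and in a fit of M and MA alone (0.25, SE 0.09, adjusted p = 0.0498). Both calls came with a smaller SE than in the main fit, at nearly the same change. Without the filter the SEs of all members lay close together, whatever their spread in the main fit. In IA against M they ran from 0.07 to 0.08 without it and from 0.06 to 0.27 in the main fit.

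Eif2ak2 and Adar both bind double-stranded RNA. Eif2ak2 encodes the kinase PKR, which phosphorylates the initiation factor eIF2alpha and stops translation, and Adar encodes an enzyme that deaminates adenosine to inosine in RNA duplexes and keeps cellular duplexes from setting off sensors. Eif2ak2 (ENSMUSG00000024079, chr17:78852564-78882573, minus strand, 16 exon blocks) was at 127, 135 and 122 CPM in M, 391, 426 and 424 in IA, 323, 301 and 242 in MetSA and 114, 124 and 125 in MA. IA and MetSA stood above M without overlap and apart from each other, while MA overlapped M. The log2 fold change was 1.69 (SE 0.09, adjusted p = 3.88e-11) after IA and 1.17 (SE 0.08, adjusted p = 1.25e-08) after MetSA, and -0.08 (95% interval -0.26 to 0.09, adjusted p = 0.556) after MA.

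Adar (ENSMUSG00000027951, chr3:89715022-89753446, plus strand, 16 exon blocks) held 123, 126 and 114 CPM in M, 294, 323 and 315 in IA, 253, 252 and 201 in MetSA and 111, 117 and 118 in MA. The order of the groups and their overlaps were those of Eif2ak2. Adar rose by 1.36 (SE 0.08, adjusted p = 7.70e-11) after IA and by 0.96 (SE 0.08, adjusted p = 2.43e-08) after MetSA, and its value after MA was -0.07 (95% interval -0.23 to 0.09, adjusted p = 0.589). Of its 100-base stretches 11.8% also occur in Chrnb2, a gene on the opposite strand that overlaps it, and without stated strand use their reads cannot be told apart. Chrnb2 had 1155 counts over the 12 libraries against 117466 for Adar.

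The tripartite motif genes differed in the size of their change. Trim25 encodes a ubiquitin ligase known for acting on the RNA sensor RIG-I, and Trim30a encodes an interferon-inducible mouse protein known to restrain NF-kB signalling. Trim30a (ENSMUSG00000030921, chr7:104409025-104465193, minus strand, 9 exon blocks) was at 219.5, 257 and 259 CPM in M, 896, 931 and 929.7 in IA, 718, 661 and 655 in MetSA and 196, 203 and 222 in MA. IA and MetSA stood apart from M and from each other, and MA overlapped M by 1 library. It rose by 1.91 (SE 0.07) after IA and by 1.47 (SE 0.07, adjusted p = 4.86e-11) after MetSA. After MA it fell by 0.24 (SE 0.07, adjusted p = 0.0159), a call that was lost without M replicate 2 or 3 or MA replicate 1 or 2 (adjusted p from 0.0669 to 0.0908).

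Trim25 (ENSMUSG00000000275, chr11:88999376-89020293, plus strand, 9 exon blocks) had the most even M libraries, at 397, 402 and 402 CPM. IA libraries held 686, 726 and 702 CPM, MetSA libraries 567, 548 and 494 and MA libraries 371, 423 and 385, the last overlapping M. Trim25 rose by 0.82 (SE 0.06, adjusted p = 6.31e-09) after IA and by 0.42 (SE 0.06, adjusted p = 5.44e-05) after MetSA, the smallest rise of the members after MetSA. After MA it was at -0.03 (95% interval -0.16 to 0.11, adjusted p = 0.833).

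Trim30b, Trim30c and Trim30d, close relatives of Trim30a, rose with it after IA and MetSA. Trim30c went from 5.39 ± 0.65 CPM in M to 66.0 ± 3.2 in IA and 41.9 ± 12 in MetSA (SD, n = 3), rises of 3.61 (SE 0.19) and 2.95 (SE 0.19), and fell by 1.31 (SE 0.22, adjusted p = 0.00138) after MA. Trim30b rose by 2.85 (SE 0.19) after IA and 2.24 (SE 0.19) after MetSA and fell by 1.30 (SE 0.23) after MA. Trim30d rose by 2.26 (SE 0.09) and 1.80 (SE 0.09), and its value after MA was -0.21 (adjusted p = 0.108). Trim30a and Trim30d share 4.41% of the 100-base stretches of Trim30a.

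**Figure D3:**
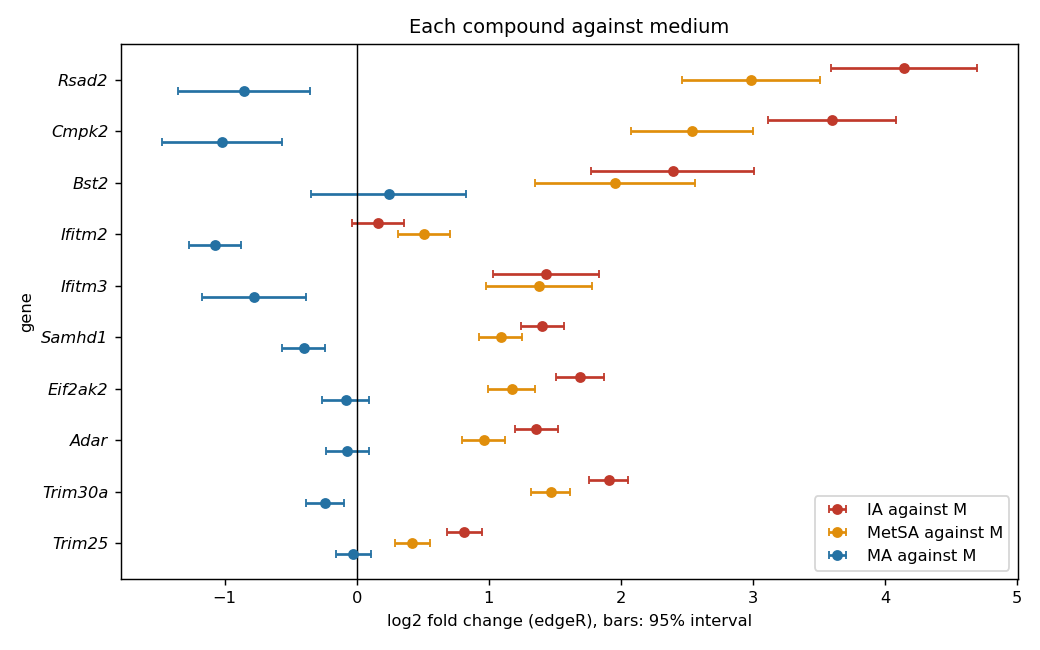
Log2 fold change of each gene against M after IA (red), MetSA (orange) and MA (blue), with 95% intervals from edgeR. The intervals after IA and MetSA lie above 0 except that of Ifitm2 after IA, and the MA values run from -1.07 to 0.24.

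IA and MetSA were compared directly at the same dose and time, which sets the compound with the double bond against the one without it. Of the 10 members 7 were higher in IA and 1 lower, against 3.97% and 2.15% of all tested genes. Rsad2 and Cmpk2 had the largest differences, 1.16 (SE 0.22, adjusted p = 0.0172) and 1.06 (SE 0.19, adjusted p = 0.0148) on the log2 scale, or 2.23-fold (95% interval 1.59 to 3.13) and 2.08-fold (1.54 to 2.82). The other called rises were smaller and more precise, from 0.31 (SE 0.08, adjusted p = 0.0204) for Samhd1 to 0.52 (SE 0.08, adjusted p = 0.00125) for Eif2ak2, with Adar at 0.40 (adjusted p = 0.00393), Trim25 at 0.39 (adjusted p = 0.00107) and Trim30a at 0.44 (adjusted p = 0.000904). In each of these 7 genes the IA libraries all lay above the MetSA libraries, where 13.9% of all genes were higher and 12.0% lower without overlap. Ifitm2 went the other way and was lower in IA than in MetSA by 0.35 (SE 0.09, adjusted p = 0.0328), with no overlap of the libraries. Bst2 (0.44, 95% interval -0.15 to 1.02, adjusted p = 0.397) and Ifitm3 (0.05, 95% interval -0.34 to 0.44, adjusted p = 0.904) were not called, and both intervals include differences as large as some that were called. Without MetSA replicate 3, the lowest MetSA library for 10 of 10 members, 4 were called higher, since Rsad2 (1.02, adjusted p = 0.0585), Cmpk2 (0.93, adjusted p = 0.0524) and Samhd1 (0.26, adjusted p = 0.0801) were not called. The Rsad2 call was also lost without IA replicate 2, IA replicate 3 or MetSA replicate 2 (adjusted p from 0.0514 to 0.0551), that of Samhd1 without IA replicate 2 or 3 (0.0796 and 0.0773), and that of Cmpk2 without MetSA replicate 2 (0.0522). Bst2 was called with no filter on low counts (0.44, SE 0.07, adjusted p = 2.71e-08). That call came with a smaller SE than in the main fit (0.26) and not with a larger difference, and the IA and MetSA libraries overlapped. As given above for IA against M, smaller SEs without the filter were not particular to Bst2. The Bst2 difference was 0.72 (adjusted p = 0.122) without MetSA replicate 1 and 0.17 (adjusted p = 0.594) without MetSA replicate 3. For Ifitm3 the difference was -0.08 (adjusted p = 0.877) without MetSA replicate 3. The call for Ifitm2 was lost when any of M replicate 2, IA replicate 1, IA replicate 3, MetSA replicate 1 or MetSA replicate 2 was left out (adjusted p from 0.0502 to 0.141).

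**Figure D4:**
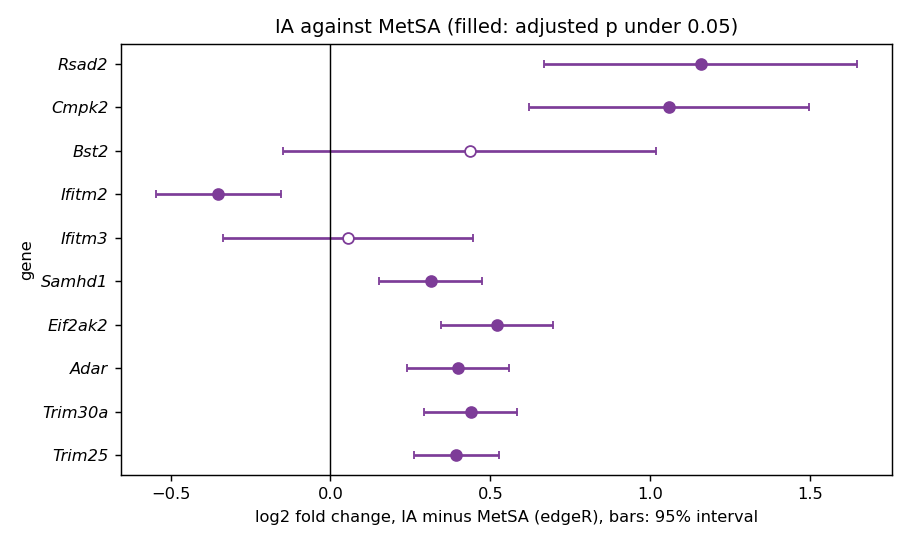
Log2 fold change of IA minus MetSA for each gene, with 95% intervals. Filled points are called at an adjusted p under 0.05, with 7 genes higher in IA, Ifitm2 higher in MetSA, and Bst2 and Ifitm3 not called.

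MA was lower than both other compounds in 10 of 10 members, with no overlap of libraries. In IA against MA 17.8% of all genes were called higher (without overlap 23.9% were higher and 25.7% lower), and the members' differences ran from 0.84 (SE 0.06) for Trim25 to 5.00 (SE 0.25) for Rsad2, a 31.9-fold difference (95% interval 21.4 to 47.6). In MA against MetSA 14.7% of all genes were called lower (20.3% without overlap), and the members ran from -3.84 (SE 0.24) for Rsad2 to -0.45 (SE 0.06) for Trim25. Ifitm2, not called between IA and M, was 1.23 (SE 0.09, adjusted p = 1.85e-08) higher in IA than in MA. Against M, the 6 members that fell after MA were Rsad2, Cmpk2, Samhd1, Ifitm2, Ifitm3 and Trim30a, and 5 of them did so without overlap, where 18.6% of all genes were lower without overlap. Without MA replicate 1, the lowest MA library for 10 of 10 members, 3 of the 6 were still called (Cmpk2, Samhd1 and Ifitm2). The 4 members not called were Bst2, Eif2ak2, Adar and Trim25.

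Scaled to exon length (CPM per kilobase of merged annotated exons, an approximation where not all exons are used), the order of levels in M was Ifitm3 (468 ± 91, SD, n = 3), Ifitm2 (375 ± 58), Bst2 (172 ± 20), Trim25 (69.6 ± 0.47), Samhd1 (59.7 ± 5.7), Trim30a (59.6 ± 5.4), Eif2ak2 (25.0 ± 1.3), Rsad2 (19.3 ± 4.0), Adar (14.9 ± 0.76) and Cmpk2 (13.03 ± 2.3). Ifitm3 and Ifitm2 overlapped, as did Samhd1 and Trim30a, and each pair among Rsad2, Adar and Cmpk2. In IA Ifitm3 led at 1265 ± 80 and Bst2 followed at 903 ± 93. Ifitm2 (419 ± 29) and Rsad2 (341 ± 51) came next with overlapping libraries, and Cmpk2 (158 ± 27) and Samhd1 (158 ± 10) also overlapped. In MA the ends of the order were Ifitm3 (273 ± 32) and Cmpk2 (6.43 ± 0.86).

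Ratios of these length-scaled levels within a library show where paired genes parted. Rsad2 to Cmpk2 was 1.37 to 1.58 in M and 1.58 to 1.78 in MA, and rose to 2.11 to 2.21 in IA and 1.98 to 2.11 in MetSA. Ifitm3 to Ifitm2 was 1.21 to 1.31 in M, 1.42 to 1.73 in MA, 1.99 to 2.61 in MetSA and 2.72 to 3.21 in IA, with no overlap of the 4 groups. Eif2ak2 to Adar lay between 1.65 and 1.70 in M and between 1.63 and 1.68 in MA, and between 1.89 and 2.14 in the IA and MetSA libraries. Trim30a to Trim25 was 0.773 to 0.8997 in M against 1.80 to 1.85 in IA and 1.69 to 1.86 in MetSA. Samhd1 to Cmpk2 had the widest range, from 0.882 to 1.11 in IA to 6.49 to 7.56 in MA. These ratios are a description and were not tested.

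**Figure D5:**
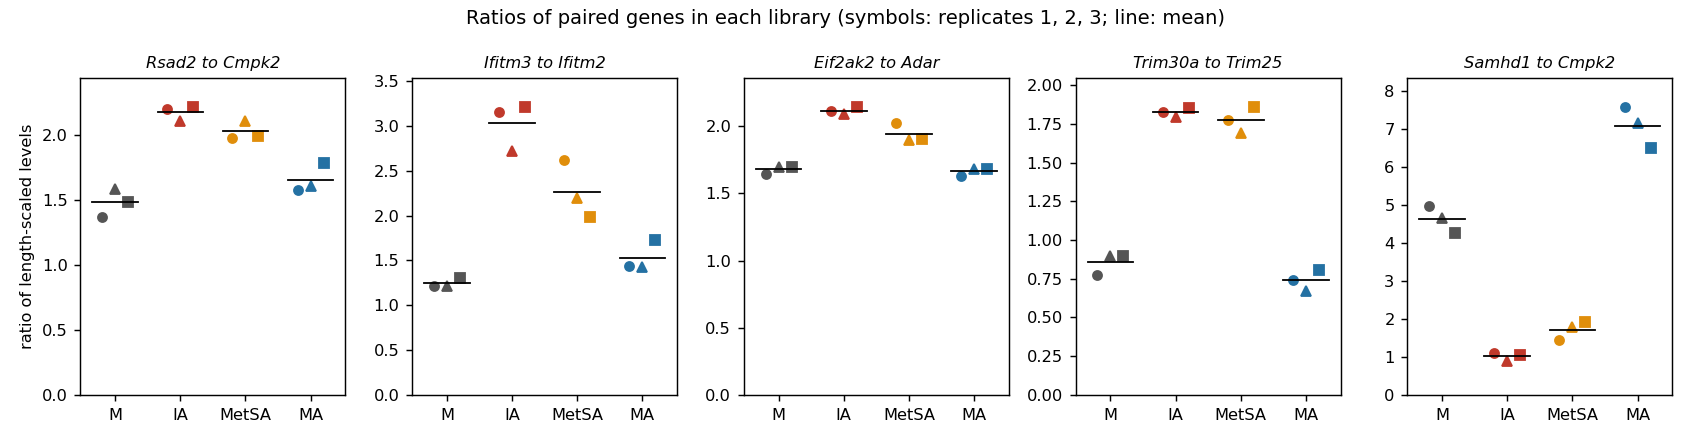
Ratio of length-scaled levels for 5 pairs of genes in the 12 libraries, with symbols for replicates and lines for group means, each axis starting at 0. Rsad2 to Cmpk2, Ifitm3 to Ifitm2, Eif2ak2 to Adar and Trim30a to Trim25 are higher in all IA and MetSA libraries than in all M and MA libraries, and Samhd1 to Cmpk2 is lower.

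Across the 12 libraries the members' log2 CPM rose and fell together. Pearson's r over the 45 pairs ran from 0.61 to 1.00 with a median of 0.96, as a description, since the points share their groups and libraries. Eif2ak2 and Adar (r = 0.9992) and Rsad2 and Cmpk2 (r = 0.9984) were the closest pairs, and after the group means had been taken out they were still at 0.97 and 0.96. Ifitm2 was the least like the rest. Its closest member was Ifitm3 (0.88) and its most distant Trim25 (0.61). The library order within groups was shared too: MA replicate 1 was the lowest MA library for 10 of 10 members, and M replicate 1 and IA replicate 1 were lowest for 8 each. Outside the members, the genes whose log2 CPM was most like the members' mean over the 12 libraries were Sp100 (0.9987), Isg15 (0.9984), Ifit2 (0.9984), Igtp (0.9983), Ddx58 (0.9983) and Oasl1 (0.9980).

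Other restriction factors were counted on a list of 25 genes, of which 24 were tested. After IA 19 rose and 1 fell (median log2 fold change 0.97), against 17.9% and 17.3% of all tested genes. After MetSA 18 rose and 1 fell (0.75), against 12.6% and 8.53%. After MA 2 rose and 10 fell (-0.20), against 10.1% and 10.1%, so that the rises were near the background. The RNA helicase Mov10, which acts on retroelements, rose by 1.67 (SE 0.08) after IA and 1.14 (SE 0.08) after MetSA and fell by 0.32 (SE 0.08, adjusted p = 0.00889) after MA. Trim21, a cytosolic antibody receptor, rose by 1.47 (SE 0.09) and 1.06 (SE 0.09) and fell by 0.44 (SE 0.09). Trim34a rose by 1.78 (SE 0.08) and 1.39 (SE 0.08) and was at -0.17 (adjusted p = 0.177) after MA.

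For the interferon pathway itself, 15 of 19 listed genes were tested, and 10 rose and 2 fell after IA, where the falls were no more frequent than the 17.3% of all tested genes and the rises stood against 17.9%. After MetSA 10 rose and 0 fell (edgeR, and 0 by DESeq2, with 2 lower at an unadjusted p under 0.05), against 12.6% and 8.53% of all genes, but 2 fell with upper-quartile scaling, 1 with the replicate block and 1 without MetSA replicate 3. After MA 3 fell and 0 rose (edgeR, and 0 by DESeq2, with 1 higher unadjusted), against 10.1% in each direction. In that comparison 1 rose with no filter, with the filter at 10 CPM, in the fit of the compared groups only, with the replicate block and without M replicate 2 or MetSA replicate 3. Of the falls, 1 was called without MA replicate 1, 5 without MetSA replicate 3 and 6 with no filter on low counts. Stat2 rose by 2.51 (SE 0.14) after IA and 1.89 (SE 0.14) after MetSA. Irf7, the factor that amplifies interferon production, rose by 4.02 (SE 0.30, adjusted p = 7.78e-06) after IA and 3.20 (SE 0.29, adjusted p = 5.40e-05) after MetSA and was at -0.51 (adjusted p = 0.249) after MA. Irf1 rose by 1.43 (SE 0.08) and 1.04 (SE 0.08) and fell by 0.30 (SE 0.08, adjusted p = 0.00818) after MA. Jak2 rose by 1.05 (SE 0.08) and 0.68 (SE 0.08). The ligands were too low to test. Ifnb1 had 0 to 2 counts in M libraries, 4 to 8 in IA, 2 to 10 in MetSA and 0 in MA, Ifna4 had at most 2 counts in any library, and Ifna2 and Ifng had 0.

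Deoxynucleotide metabolism, which Samhd1 and Cmpk2 belong to, was mixed. Of 18 listed genes, these 2 members included, 5 rose and 9 fell after IA, 3 rose and 7 fell after MetSA, and 9 fell and 0 rose after MA (edgeR, 0 by DESeq2 and 0 unadjusted). The shares of all tested genes that rose and fell were 17.9% and 17.3% after IA, 12.6% and 8.53% after MetSA and 10.1% and 10.1% after MA. With upper-quartile scaling 3 rose after IA, and 3 without M replicate 1. Dck, the deoxycytidine kinase of the salvage pathway, moved as the members did, from 120 ± 4.0 CPM in M to 460 ± 7.7 in IA, 330 ± 29 in MetSA and 95.6 ± 4.8 in MA (SD, n = 3), with log2 fold changes of 1.94 (SE 0.07, adjusted p = 1.80e-13), 1.46 (SE 0.07) and -0.32 (SE 0.06, adjusted p = 0.00108). In contrast Tk1, the thymidine kinase of dividing cells, fell by 1.09 (SE 0.11) after IA, 0.58 (SE 0.11) after MetSA and 0.71 (SE 0.11) after MA. Rrm1, a subunit of ribonucleotide reductase, fell by 0.60 (SE 0.08), 0.40 (SE 0.08) and 0.46 (SE 0.08), and Dut, the dUTPase, by 1.21 (SE 0.17), 0.68 (SE 0.17) and 0.69 (SE 0.17).

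Among 17 tested genes of double-stranded RNA sensing and eIF2alpha signalling, 10 rose and 2 fell after IA, 5 rose and 1 fell after MetSA, and 3 rose and 2 fell after MA. Of all tested genes 17.9%, 12.6% and 10.1% were called higher after IA, MetSA and MA, and 17.3%, 8.53% and 10.1% lower. Beside these shares the falls were near or under the background in each comparison. Some of these small counts depended on the scaling, and with upper-quartile scaling 6 rose and 4 fell after IA. The 2 falls after IA numbered 0 without M replicate 1 or 2 or any 1 IA replicate and 4 without MetSA replicate 3, and the 3 rises after MA numbered 1 without M replicate 3 or MA replicate 1. RNA sensors were among the rises after IA and MetSA. Ddx58, which encodes RIG-I, rose by 2.24 (SE 0.09) after IA and 1.70 (SE 0.09) after MetSA and fell by 0.42 (SE 0.08, adjusted p = 0.00135) after MA. Ifih1, which encodes the sensor MDA5, rose by 2.15 (SE 0.09) and 1.58 (SE 0.09) and was at -0.17 (adjusted p = 0.190) after MA. Dhx58 rose by 1.94 (SE 0.12) and 1.48 (SE 0.12). Rnf135, another ubiquitin ligase of RIG-I, rose by 0.85 (SE 0.09) and 0.46 (SE 0.09) and was at -0.07 (adjusted p = 0.663) after MA.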

How the data were processed

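Poly(A)-selected RNA of 12 libraries was sequenced. The table the authors deposited holds whole-number counts of reads for each gene and no scaled values. STAR, featureCounts and mm10 are named, without versions, in the submitters' processing notes. The annotation and strand setting are not given in any source used. Of counts from 1 to 9, 66.1% were even, against 50.9% of counts of 1000 or more. Both mates of a pair may thus have been counted, in which case a count holds up to 2 for each fragment and small counts stand for fewer fragments. Symbols, coordinates and exon lengths came from GENCODE on GRCm38. Within each group the replicates differed beyond counting noise (a chi-square of 9.60 to 59.7 for each degree of freedom).

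Genes passing filterByExpr (14113, all 10 members among them) were fitted with edgeR 4.0.16 in R 4.3.3 (TMM, robust glmQLFit, glmQLFTest, all 4 groups, no covariate, 8 residual degrees of freedom), with Benjamini-Hochberg adjustment over tested genes in each of 6 comparisons. The fit code was also run on simulated counts with known changes in IA, drawn with the same spread for every gene. That run does not show how the fit behaves with the uneven spread of these libraries. Alternatives were RLE and upper-quartile scaling, no filter, at least 10 CPM in 3 libraries, DESeq2 1.42.0, a fit of 2 groups, the replicate number as a block, counts divided by 2 and each library left out. If replicates are not separate animals, p-values measure only the spread between these samples. The members and lists were chosen with earlier results of these data known. Named genes were the members, their listed paralogs, Ifnb1 and Irf7, from every list at most 4 with the lowest adjusted p, and the 6 most correlated with the members' mean. Shfl, on a list, was not analysed here, and some listed genes are not reported here by name.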

Additional observations from a re-analysis of the deposited data

How the results depend on the processing

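Among the members' fold changes under the alternatives, 1171 kept their direction and their side of the threshold, 23 lost a call and 4 gained one. The sign changed in 2, neither of them called. With single libraries left out, Trim25 in MA against M ran from -0.0815 to 0.0133 (above 0 without MA replicate 1) and Ifitm3 in IA against MetSA from -0.079 to 0.2241 (under 0 without MetSA replicate 3). Uncalled values of other named genes also changed sign. In IA against M Ifitm1 was -0.0881 with upper-quartile scaling and ran from -0.2513 to 0.3897 with libraries left out. Rnf135 in MA against M ran from -0.1452 to 0. In MA against MetSA Dut was 0.038 with upper-quartile scaling and ran from -0.1827 to 0.1459, and Rrm1 ran from -0.1101 to 0.0068. Members called higher in MA against M numbered 1 (Bst2) with no filter on low counts and 1 in the fit of the compared groups only, against 0. With single libraries left out, the members called lower in MA against M numbered 3 to 6, those higher in IA against MetSA 4 to 7, and those lower 0 to 1. RLE and upper-quartile scaling, DESeq2, the stricter filter and counts divided by 2 left each member count as it was. Upper-quartile scaling moved the share of higher calls among all called genes from 50.9% to 34.8% in IA against M, from 59.7% to 42.2% in MetSA against M, from 64.8% to 54.2% in IA against MetSA, from 51.5% to 37.5% in IA against MA and from 44.1% to 54.5% in MA against MetSA. All genes called lower in MetSA against M numbered 1204, but 1895 with upper-quartile scaling and 725 without M replicate 1. In IA against MetSA 560 genes were higher and 304 lower, but 917 and 566 with no filter, 889 were higher with DESeq2 and 146 lower in the fit of the compared groups only. Left-out libraries took the higher count to 329, 353, 320 and 351 (IA replicates 1, 2 and 3 and MetSA replicate 3) and the lower count to 97, 100, 193 and 154 (IA replicates 1 and 3 and MetSA replicates 2 and 3). The cause of these shifts was not tested.

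The sources used do not say whether replicate numbers pair the samples, and the main fit took no account of them. Deviations of same-numbered libraries from their group means correlated weakly, at 0.0122 to 0.1685 (median 0.0693), and 2 of 18 pairs were over 0.1. For different numbers the median was -0.032 and the highest value 0.0233. Deviations cancel out within each group, so positive values for the same number push those for different numbers down. The lower values for different numbers are therefore no separate sign of pairing. On average 12 of 12 libraries correlated best with their own number, which is a hint of pairing from the data and not the design. With the replicate block the members called were 9 higher in IA against M, 10 higher in MetSA against M, 6 lower in MA against M, 7 higher and 1 lower in IA against MetSA, 10 higher in IA against MA and 10 lower in MA against MetSA, as without it. With the block 882 genes were higher and 531 lower in IA against MetSA.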
